A study of Mus musculus with 4 samples.

Results

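Inner root sheath keratins are the structural keratins of the sheath that surrounds the growing hair inside its follicle. The set was taken by symbol from the deposited gene table: Krt25, Krt26, Krt27 and Krt28, which encode type I keratins, and Krt71, Krt72, Krt73 and Krt74, the type II group. Of these 8 members, 7 matched a row among the 17958 genes listed, and all 7 were among the 14459 genes tested. Krt74, which the RefSeq gene table for mouse build GRCm38.p6 lists as a transcribed pseudogene, was not analysed here. RNA from mouse skin labelled as epidermis keratinocytes was sequenced in 4 libraries. The 2 libraries named IL-36Ra-cKO carry the genotype entry IL-36Ra knockdown, and the 2 named IL-36Rafl/fl carry the entry WT. No treatment was given to either group. IL-36Ra, encoded by Il36rn, is the secreted antagonist that blocks IL-36 receptor signalling. The label cKO is read here as conditional knockout, with fl/fl for the floxed alleles of the controls. The labels give neither the Cre driver, nor the age, sex, body site or hair cycle stage of the mice. Separate animals are not stated for the replicates either, so the p-values given below measure only the spread between these libraries, which may be technical.

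The inner root sheath is a cylinder of keratinocytes made of Henle's layer, Huxley's layer and the inner root sheath cuticle. It forms from matrix cells of the hair bulb while a hair grows, moulds and guides the hair shaft, and breaks down before the shaft reaches the skin surface. Keratin filaments assemble from pairs that join a type I with a type II chain, so a cell makes members of both groups. In human follicles KRT25, KRT27, KRT28 and KRT71 are found in all layers of the sheath, whereas KRT26, KRT72 and KRT73 belong to its cuticle. Human KRT25 variants cause woolly hair, and the curly-coated Caracul mouse carries a changed Krt71.

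Total counts per library ran from 14622791 to 16490602. The label names epidermis keratinocytes, yet fibroblast, adipocyte, skeletal muscle and blood genes were also read in every library. Y-linked genes were high in both cKO libraries (summed 124 and 154 TPM) and near 0 in the fl/fl libraries (0.98 and 1.23 TPM), so sex and genotype label cannot be told apart in any difference between the groups. The targeted gene, listed under its older symbol Il1f5, was read at 171 and 135 TPM in the cKO libraries and at 234 and 179 TPM in the fl/fl libraries (log2 fold change -0.24 ± 0.24 SE, edgeR adjusted p = 0.509). A count over the whole gene cannot say whether a deleted exon was missing, so it checks no label. Keratins of the epidermis between follicles were abundant everywhere, with summed levels of 22092 to 27026 TPM.

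The type I members lie side by side on chromosome 11 and the type II members on chromosome 15. To show what the start regions of the 2 clusters share, promoter sequences are given for the most abundant type I member, Krt25, and for Krt71 and Krt73, which shared the longest identical run among all pairs of members. Each line gives the 250 bases before the RefSeq start of the gene (build GRCm38.p6), read 5′ to 3′ on the strand of the gene. Capitals mark matches to TATAAA (the TATA box), AGATAA (a core bound by GATA factors), CAATTA (a core bound by Msx-type homeodomain factors) and CTTTGA (a LEF/TCF core), each searched on both strands.

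Krt25 promoter, chr11:99322952-99323201, minus strand: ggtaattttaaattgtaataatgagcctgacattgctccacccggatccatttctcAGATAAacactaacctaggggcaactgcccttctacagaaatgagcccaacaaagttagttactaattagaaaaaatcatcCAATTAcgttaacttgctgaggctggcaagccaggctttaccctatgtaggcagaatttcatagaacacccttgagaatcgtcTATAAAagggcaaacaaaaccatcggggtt

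Krt71 promoter, chr15:101743098-101743347, minus strand: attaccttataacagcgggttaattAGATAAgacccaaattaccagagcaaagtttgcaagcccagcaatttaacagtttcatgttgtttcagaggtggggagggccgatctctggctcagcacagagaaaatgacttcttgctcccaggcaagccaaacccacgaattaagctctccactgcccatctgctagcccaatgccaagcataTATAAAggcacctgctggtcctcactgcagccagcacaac

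Krt73 promoter, chr15:101802361-101802610, minus strand: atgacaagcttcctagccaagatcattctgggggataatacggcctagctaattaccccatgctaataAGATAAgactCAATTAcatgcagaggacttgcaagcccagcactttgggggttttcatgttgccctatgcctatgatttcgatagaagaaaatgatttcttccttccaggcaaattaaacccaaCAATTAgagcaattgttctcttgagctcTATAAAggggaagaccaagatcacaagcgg

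All 7 members held TATAAA on either strand in this window, against 3504 of 27025 promoters of the same length. In 6 members it lay on the strand of the gene. The match began 30 bases before the start in Krt25, Krt26, Krt28 and Krt73, 40 bases before it in Krt71 and 15 bases before it in Krt27. Krt72 held these exact letters only on the opposite strand, 203 bases upstream. Other forms of the TATA box were not searched. AGATAA was found in 4 of 7 members (Krt25, Krt27, Krt71 and Krt73) against 10.3% of all promoters, and CAATTA in 4 of 7 (Krt25, Krt26, Krt28 and Krt73) against 7.34%. CTTTGA was found in Krt28 alone, against 3797 of the 27025 promoters. The run shared by Krt71 and Krt73 was 14 bases long (ttgcaagcccagca) and began 196 and 154 bases before their starts. These motifs were chosen with the sequences in view, and a match is a description of the letters and not a binding site.

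Every member was abundant in both fl/fl libraries, lower in cKO replicate 1, and at or near 0 in cKO replicate 2. Levels are given as TPM, the deposited transcript abundance scaled by transcript length and library size, which allows genes to be compared. Summed over the 7 members the level was 6116 and 7815 TPM in fl/fl replicates 1 and 2, 2784 TPM in cKO replicate 1 and 0.28 TPM in cKO replicate 2. In counts, these were 112368 and 175653, 61071, and 5. The sheath keratins thus held 0.706% and 1.07% of all counts in the fl/fl libraries and 0.415% in cKO replicate 1. In bulk RNA, fewer cells of a type and less RNA per cell cannot be told apart.

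**Figure D1:**
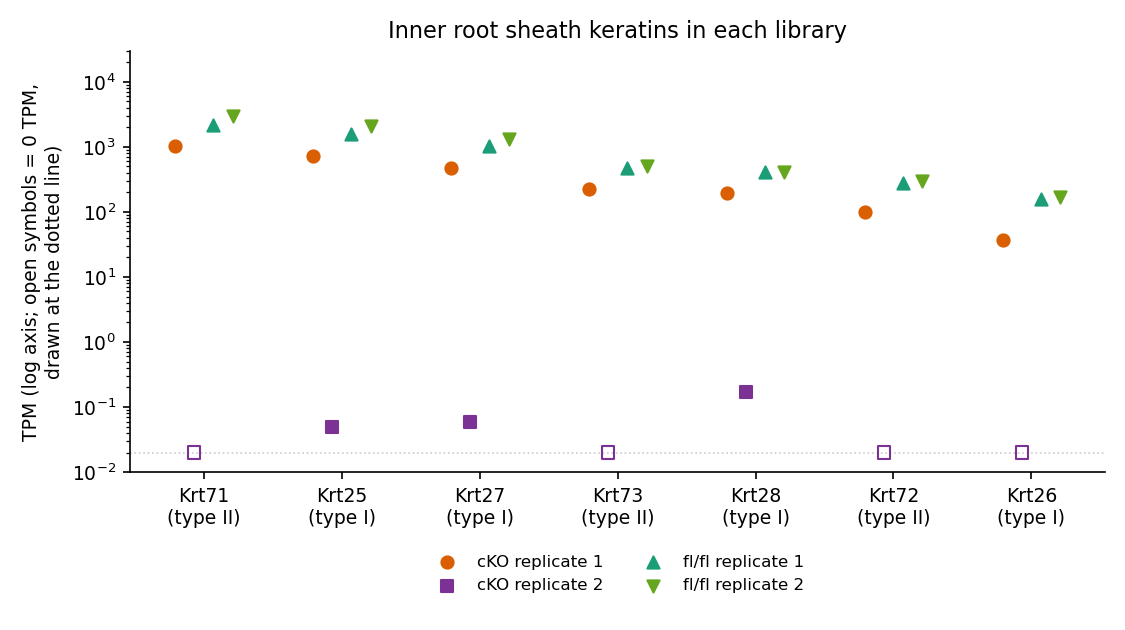
TPM of each inner root sheath keratin (horizontal axis, ordered by the fl/fl mean) on a log axis, with a symbol for each of the 4 libraries and open symbols for 0 TPM. Both fl/fl libraries lie highest, cKO replicate 1 lies below them for all 7 genes, and cKO replicate 2 does not exceed 0.17 TPM.

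Krt71 was the most abundant member. Its level was 2180 and 3014 TPM in the fl/fl libraries, 1035 TPM in cKO replicate 1 and 0 in cKO replicate 2. No read was assigned to it among 14622791 in that library, whereas 44339 and 74754 counts were assigned in the fl/fl libraries. With a floor of 3 counts in the library at 0, the fl/fl libraries together were at least 18857-fold higher than cKO replicate 2. The fitted log2 fold change over both cKO libraries, given as cKO minus fl/fl as are all later ones, was -2.11 ± 2.69 (SE, edgeR adjusted p = 0.598). Its standard error exceeds the change itself.

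Krt73 and Krt72, the other type II members, were also at 0 in cKO replicate 2. Krt73 stood at 477 and 510 TPM in the fl/fl libraries and at 223 TPM in cKO replicate 1. For Krt72 the fl/fl levels were 278 and 297 TPM and the level in cKO replicate 1 was 101 TPM. Against cKO replicate 2 the fl/fl libraries were at least 3565-fold higher for Krt73 and at least 1886-fold higher for Krt72. Both genes had cKO levels below both fl/fl levels, with fitted log2 fold changes of -1.92 ± 2.35 and -2.29 ± 2.17 (SE, edgeR adjusted p = 0.582 and 0.481).

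Krt25 led the type I members. It was read at 1579 and 2103 TPM in the fl/fl libraries, at 724 TPM in cKO replicate 1 and at 0.05 TPM, a single count, in cKO replicate 2. The ratio of the fl/fl libraries to cKO replicate 2 was 36087 (95% exact counting interval 6477 to 1425390). Krt27 followed, with 1026 and 1304 TPM in the fl/fl libraries, 467 TPM in cKO replicate 1 and 0.06 TPM, again 1 count, in cKO replicate 2. Its ratio was 17058 (3061 to 673780). Both genes were therefore read in 3 libraries at high levels and hardly at all in the fourth. Their fitted log2 fold changes were -2.12 ± 2.54 and -2.08 ± 2.38 (SE, edgeR adjusted p = 0.574 and 0.558).

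Krt28 had the most counts of any member in cKO replicate 2, and these were 3. Its levels were 417.4 and 416.6 TPM in the fl/fl libraries, 197 TPM in cKO replicate 1 and 0.17 TPM in cKO replicate 2, a ratio of fl/fl to cKO replicate 2 of 2131 (729 to 10334). Krt26 was the least abundant member, at 160 and 170 TPM in the fl/fl libraries, 37.6 TPM in cKO replicate 1 and 0 in cKO replicate 2. The fl/fl libraries were at least 1450-fold higher than cKO replicate 2. Krt28 had the smallest fitted log2 fold change of the set (-1.77 ± 2.10 SE, edgeR adjusted p = 0.571) and Krt26 the largest (-2.92 ± 2.04, adjusted p = 0.351).

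With edgeR's quasi-likelihood test over all 14459 genes, 0 of the 7 members passed an adjusted p of 0.05 and 0 had an unadjusted p under 0.05. Over all genes tested, 0% passed in the lower direction and 0.0277% in either direction, while 15.6% were lower at an unadjusted p under 0.05. DESeq2 also called 0 members, against 1428 genes lower and 1146 higher of 17925. Limma-voom called 0 members, against 0 genes lower and 4 higher of 14459. All 7 members had both cKO levels below both fl/fl levels, here and in later counts of this kind in TMM-scaled CPM, a pattern found in 32.9% of all genes tested. The median fitted log2 fold change was -2.11 over the members and 0.00 over all genes. For the summed level, log2(TPM + 1) was 5.90 ± 7.84 in the cKO and 12.8 ± 0.25 in the fl/fl libraries (SD, n = 2 each), and the two-sided exact permutation test gave p = 0.333, the smallest value that 2 against 2 libraries allow.

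The group difference rested on which cKO library was read. Without cKO replicate 1, all 7 members were lower at edgeR adjusted p values of 4.32e-03 to 6.71e-03, against 3.9% of all genes called lower in that fit and 12.9% lower at an unadjusted p under 0.05. The fitted changes there depend on the prior count for genes at 0, so the lower bounds and counting ratios above give the size. Without cKO replicate 2, 0 members passed and 0% of all genes were called lower. In that fit 5 of the 7 were lower at an unadjusted p under 0.05, against 10.7% of all genes. Its log2 fold changes ran from -0.78 ± 0.27 for Krt28 (edgeR adjusted p = 0.199) to -1.92 ± 0.27 for Krt26 (adjusted p = 0.145). Krt71 and Krt25 gave -1.11 ± 0.48 and -1.12 ± 0.43 and had larger errors, and their levels differed 1.38-fold and 1.33-fold between the controls. With a cKO library left out, the remaining library is assumed to vary like the controls.

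In cKO replicate 2 all 7 members lay at least 5 log2 units below the fl/fl mean, as did 1.05% of all genes tested. In cKO replicate 1, 5 of 7 lay at least 1 log2 unit below it, against 12.1% of all genes.

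The members kept their order of levels in the 3 libraries where they were abundant. In cKO replicate 1 and both fl/fl libraries the order of levels was the same for all 7, Krt71 highest, then Krt25, Krt27, Krt73, Krt28, Krt72 and Krt26. Over the fl/fl libraries 5 of the 6 neighbouring pairs in this order differed by more than the sum of their SDs. The exception was Krt71 and Krt25 (2597 ± 590 and 1841 ± 371 TPM, SD, n = 2), although Krt71 was above Krt25 in each of the 3 libraries. Krt73 and Krt28, at 493.9 ± 23.4 and 417 ± 0.559 TPM, were the closest pair that did differ beyond that spread.

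Type II members made up 48.0% and 48.9% of the summed TPM in the fl/fl libraries and 48.8% in cKO replicate 1. With the sum at 40.0% of the fl/fl mean in cKO replicate 1, the balance of the keratin types was within 1 percentage point of both controls. As a share of counts, which are not scaled by length, type II members made up 52.8% and 53.6% in fl/fl replicates 1 and 2 and 53.6% in cKO replicate 1. In cKO replicate 2, 0 of the 5 counts were of type II members, and the exact 95% interval of that share of counts reaches 52.2%, just below the other libraries. Taken over both cKO libraries the share was 24.4 ± 34.5% against 48.4 ± 0.642% (SD, n = 2; exact permutation p = 0.667), and without cKO replicate 2 the cKO share was 0.365 percentage points higher.

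**Figure D2:**
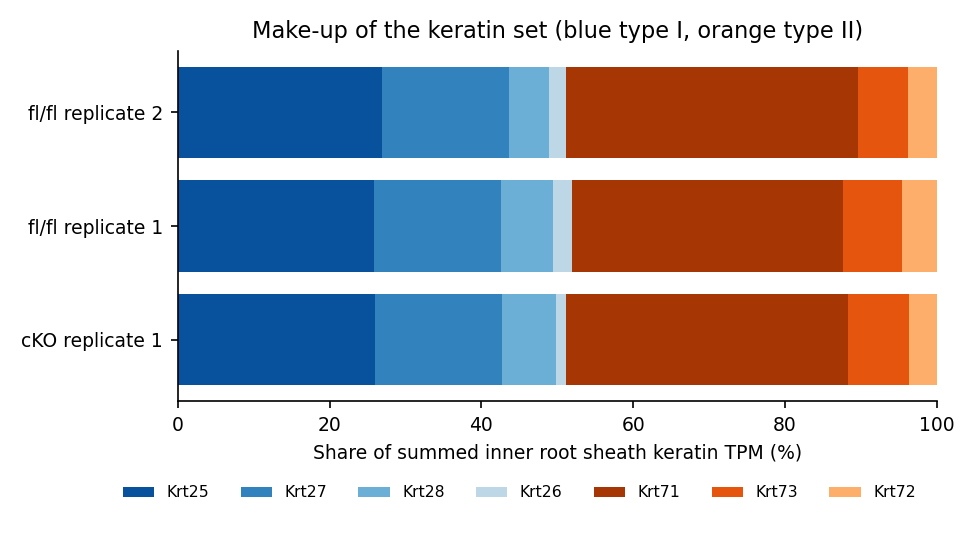
Share of the summed inner root sheath keratin TPM (horizontal axis, percent) held by each member in the 3 libraries with more than 5 counts, type I in blue and type II in orange. The border between the colours lies near the middle in each bar, with type II at 48.0%, 48.9% and 48.8%.

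Single pairs behaved alike. The ratio of Krt25 to Krt71, the most abundant chain of each type, was 0.724 and 0.698 in the fl/fl libraries and 0.699 in cKO replicate 1. For Krt27 to Krt71 it was 0.471, 0.433 and 0.452, again with cKO replicate 1 between the controls. Krt28 to Krt73 gave 0.874, 0.816 and 0.879. The exception was Krt26 to Krt72, both cuticle keratins in human follicles, at 0.574, 0.572 and 0.373. Krt26 held 2.61% and 2.18% of the summed TPM in the fl/fl libraries and 1.35% in cKO replicate 1, where it stood at 22.8% of its fl/fl mean. The other members stood between that of Krt72, with 101 TPM against 288 ± 13.4 (SD, n = 2), and the 47.1% of Krt28. Whether the lower share of Krt26 exceeds the spread between cKO animals cannot be told from a single library with reads.

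Genes that border both blocks were read in cKO replicate 2. On chromosome 11 the next gene after Krt28 is Krt10, the type I keratin of suprabasal epidermis, read at 5018 TPM in cKO replicate 2 and at 5456 and 2770 TPM in the fl/fl libraries. On the other side lies Krt24, at 71 counts in cKO replicate 2 and 108 and 144 counts in the controls. On chromosome 15 the block is flanked by Krt5, the type II keratin of basal cells, at 3655 TPM in cKO replicate 2 against 2850 and 2748 TPM. Beyond Krt73 lie Krt2, which was low in every library (0.58 to 1.68 TPM), and Krt1, at 2607 TPM in cKO replicate 2. Gene order was taken from GRCm38.p6, an older build than the GRCm39 named in the submitters' processing notes.

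**Figure D3:**
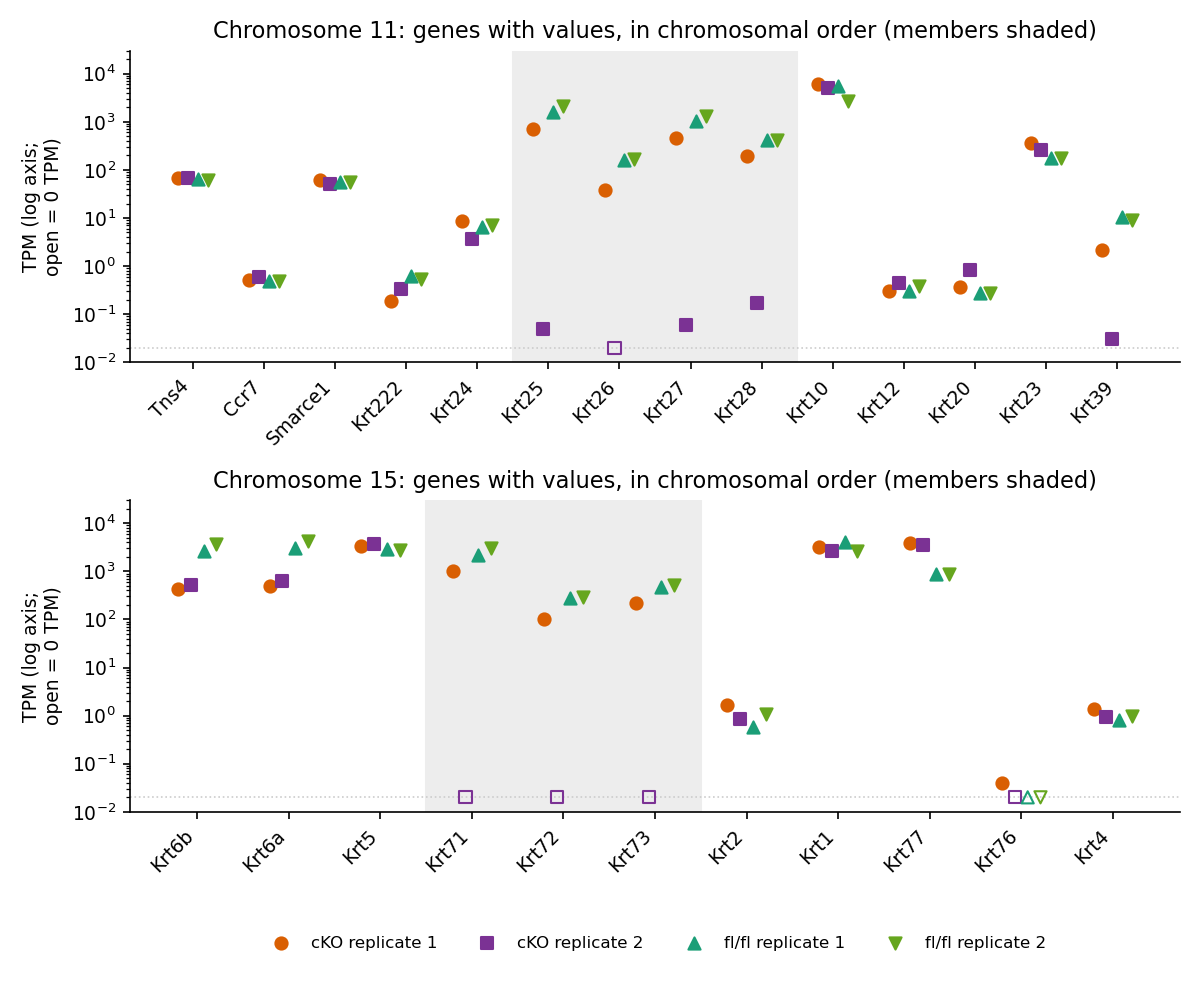
TPM (log axis, open symbols for 0 TPM) of the genes with values around the type I members on chromosome 11 and the type II members on chromosome 15, in chromosomal order and not to scale. Inside the shaded blocks cKO replicate 2 (squares) lies at or below 0.17 TPM, whereas the flanking Krt10 and Krt5 stand at 5018 and 3655 TPM in the same library.

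Other genes of the inner root sheath ranged from those that followed the keratins to those that did not. Trichohyalin (Tchh), the protein that cross-links with keratin filaments in this sheath, stood at 3133 and 1522 TPM in the fl/fl libraries, 338 TPM in cKO replicate 1 and 2.01 TPM in cKO replicate 2. Its controls differed more from each other than those of any keratin member, and it was 0.512 and 0.195 of the summed keratin TPM in them and 0.121 in cKO replicate 1. Padi3, which encodes a deiminase that modifies trichohyalin, was at 86.6, 105, 39.9 and 0 TPM in fl/fl replicates 1 and 2 and cKO replicates 1 and 2. By contrast Gata3, which encodes a transcription factor needed for inner root sheath formation and is also expressed in epidermis and T cells, was at 69.7 and 60.7 TPM in the fl/fl and 92.1 and 121 TPM in the cKO libraries (log2 fold change 0.88, edgeR adjusted p = 0.089). Transglutaminase 1 (Tgm1) and corneodesmosin (Cdsn), which also serve the cornified layer between follicles, were read at 48.6 and 116 TPM in cKO replicate 2. Tgm1 was at 82.6 and 81.8 TPM in the fl/fl libraries and at 97.35 TPM in cKO replicate 1. For Cdsn these levels were 140 and 153 TPM, and 186 TPM. Of the 10 partner genes, 7 had both cKO levels below both fl/fl levels and 1 had both above (32.9% and 34.8% of all genes), and 0 were called.

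The sum of the hair shaft keratins showed the same order of libraries and kept a smaller share in cKO replicate 1. Krt84 went against this order, at 3.92 TPM in cKO replicate 2 and 3.16 TPM in cKO replicate 1. Summed over 16 genes the shaft keratins stood at 2499 and 2818 TPM in the fl/fl libraries. The sum was 615 TPM in cKO replicate 1 and 6.47 TPM in cKO replicate 2. There 10 of the 16 were at 0, as were 167 of the 14459 genes tested. Relative to its fl/fl mean, the sum in cKO replicate 1 was 23.1% for the shaft and 40.0% for the inner root sheath. The ratio of sheath to shaft keratin TPM was 2.45 and 2.77 in the fl/fl libraries and 4.53 in cKO replicate 1, above both controls. In cKO replicate 2 the ratio was 0.0433, based on 5 sheath and 160 shaft counts. Of the shaft counts, 113 were of Krt84 and 43 of Krt32. For the log2 ratio 1 TPM was added to both sums, which is more than the sheath sum of cKO replicate 2. The log2 ratio was then -2.54 in that library and 2.18 in cKO replicate 1. The cKO libraries thus lay on opposite sides of the controls, and no difference of the log2 ratio between groups was detected (-0.18 ± 3.34 against 1.38 ± 0.13, SD, n = 2; exact permutation p = 1).

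The shaft keratins differed widely among themselves in cKO replicate 1, from 5.55% of the fl/fl mean for Krt34 to 66.5% for Krt35, with a median of 16.7%. The sheath keratins covered the narrower range of 22.8% to 47.1%. Krt35 and Krt85, which in human follicles are the shaft keratins that appear first in the matrix, were at 191 and 139 TPM in cKO replicate 1 against fl/fl means of 287 and 335 TPM. Krt33a and Krt83, which appear higher in the cortex there, were at 44.0 and 33.4 TPM against 405 and 274 TPM. Reads of several shaft keratins are hard to tell apart, and their estimated counts were often not whole. Among the sheath keratins only 2 of 28 estimated counts were not whole to within 1e-08, both in fl/fl replicate 2 (Krt71 and Krt73, whose counts are given rounded here).

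**Figure D4:**
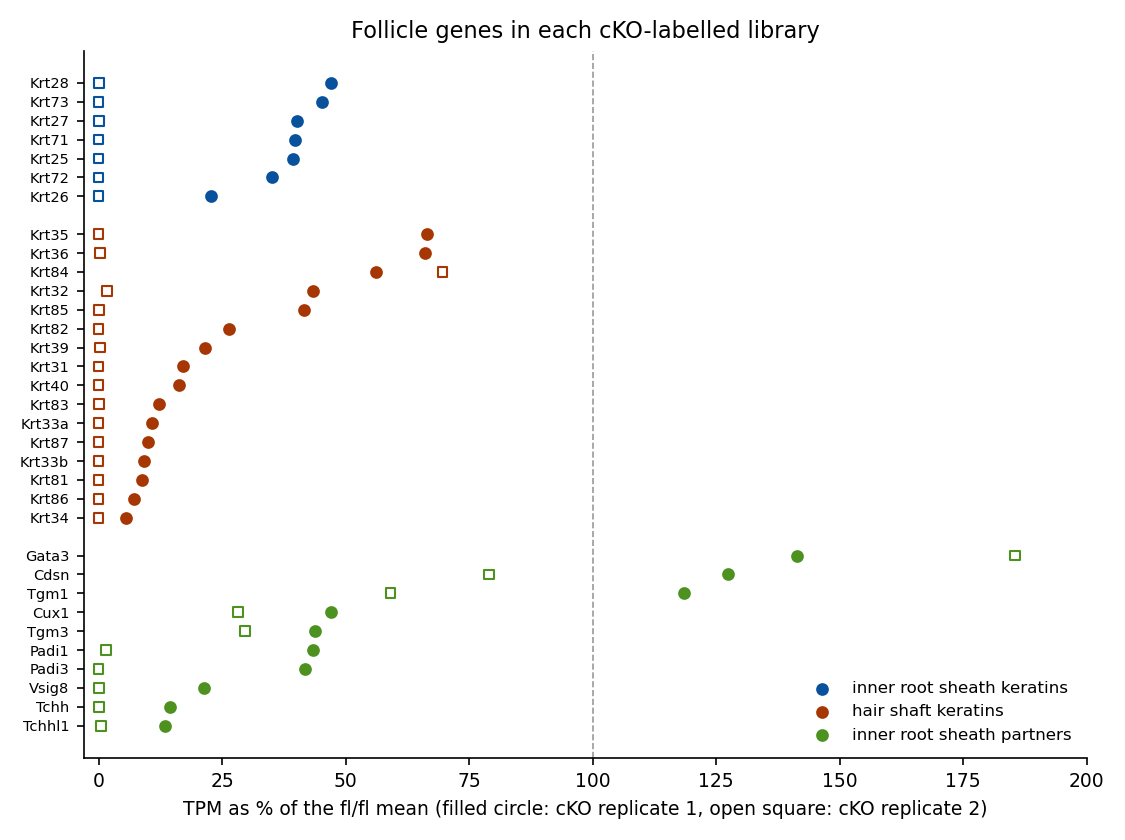
TPM as a percent of the fl/fl mean (horizontal axis) for each inner root sheath keratin, hair shaft keratin and inner root sheath partner, with filled circles for cKO replicate 1 and open squares for cKO replicate 2. Sheath keratins lie between 22.8% and 47.1% in cKO replicate 1, and the shaft keratins spread from 5.55% to 66.5%.

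The genes whose profile over the 4 libraries was closest to the median of the members came mostly from the shaft keratin, keratin-associated protein and sheath partner lists. Likeness was the Euclidean distance between log2 CPM values (prior count 2) centred on the fl/fl mean, and the median profile of the members was -1.09 in cKO replicate 1 and -12.4 in cKO replicate 2. The 10 closest were the shaft keratins Krt85 (distance 0.874), Krt35, Krt33a, Krt31 and Krt83, the keratin-associated protein genes Krtap7-1 and Krtap11-1, Padi3 (1.82), Crnn (1.58), which encodes the cornified envelope protein cornulin, and Calhm4 (1.99). Members themselves lay at distances of 0.165 (Krt73) to 2.38 (Krt71). For genes at 0 in cKO replicate 2 the value there follows from their level in the controls and the prior count.

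Transcription factors of the hair matrix had a median closer to 0 than the keratins. Of 16 tested, 12 had both cKO levels below both fl/fl levels and 2 had both above (32.9% and 34.8% of all genes), the median log2 fold change was -1.24, and 0 were called by edgeR over all genes. The median over the list of log2 CPM minus the fl/fl mean, called the library median below, was -0.73 and -1.81 in cKO replicates 1 and 2. Vdr, the vitamin D receptor needed for hair cycling, was at 71.8 and 80.2 TPM in the fl/fl and 35.9 and 26.6 TPM in the cKO libraries. Hr (hairless) and Ovol1 were at 84.9 and 60.1 TPM in cKO replicate 2 against fl/fl levels of 81.0 and 77.8, and 67.9 and 76.8 TPM.

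Cells around the follicle and in the deeper skin were read in every library. Among 12 dermal papilla genes tested, 9 had both cKO levels below both fl/fl levels, against 32.9% of all genes tested, with library medians of -0.91 and -2.13. For follicle stem cell genes these medians were -0.44 and -0.91, and of 8 genes 5 had both cKO levels below both fl/fl levels and 3 had both above (32.9% and 34.8% of all genes). Krt15 was at 1065 and 778 TPM in cKO replicates 1 and 2 against 329 and 361 TPM (edgeR adjusted p = 0.072). Sox9 was at 8.77 and 6.52 TPM in the same libraries against 20.4 and 19.4 TPM (edgeR adjusted p = 0.073), and Lhx2 at 13.6 and 3.75 TPM against 41.1 and 26.8 TPM (edgeR adjusted p = 0.154). The melanocyte list, whose cells pigment the growing hair, was also below both controls in cKO replicate 1 and lowest in cKO replicate 2. Its summed level was 549 and 515 TPM in the fl/fl libraries, 204 TPM in cKO replicate 1 and 16.9 TPM in cKO replicate 2, and 10 of 11 genes had both cKO levels below both fl/fl levels (32.9% of all genes). Oca2 was at 0 in cKO replicate 2, and Tyrp1 and Dct, its defining pigment enzymes, were at 0.65 and 2.84 TPM.

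Companion layer and outer root sheath keratins stayed readable in cKO replicate 2, though most were below both controls in both cKO libraries. Of 6 tested, 5 had both cKO levels below both fl/fl levels and 1 had both above (32.9% and 34.8% of all genes). The list includes Krt75, the companion layer keratin next to the inner root sheath. Summed over its 7 genes, the list was at 4194 and 3808 TPM in the cKO and 11160 and 14741 TPM in the fl/fl libraries. Krt17 was at 1075 and 659 TPM against 1595 and 2082 TPM. In the same order Krt16 was at 1117 and 1219 TPM against 3493 and 4261 TPM. Krt6a was at 487 and 624 TPM against 3011 and 4221 TPM, and Krt6b at 419 and 522 TPM against 2622 and 3674 TPM. The part of these reads that came from follicles was not tested.

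Markers of some other tissues, among them muscle and blood, also set cKO replicate 2 apart. Adipocyte, endothelial, leukocyte and cell cycle sums were similar in both cKO libraries. All 11 skeletal muscle genes were detected in every library, with a summed level of 1747 TPM in cKO replicate 2 against 68.0 TPM in cKO replicate 1 and 123 and 159 TPM in the controls. The 5 blood genes summed to 1190 TPM against 203, 275 and 309 TPM. Sebocyte genes summed to 434 TPM in cKO replicate 2 and to 943, 1021 and 964 TPM in the other libraries, with Elovl3 at 9.23 TPM against 82.9 to 99.4 TPM. Dermal fibroblast genes summed to 2322 TPM in cKO replicate 2 and to 1419, 1251 and 1576 TPM elsewhere. Adipocyte genes gave 1658 and 1649 TPM in the cKO and 709 and 1656 TPM in the fl/fl libraries. All 9 cell cycle genes had both cKO levels below both fl/fl levels (32.9% of all genes). By edgeR 0 were called and 7 were lower at an unadjusted p under 0.05 (15.6% of all genes), and their summed level was 149 and 165 TPM against 365 and 298 TPM. Endothelial genes summed to 47.6 and 50.9 TPM against 47.7 and 56.5 TPM, and leukocyte genes to 165 and 188 TPM against 131 and 232 TPM. For keratin-associated proteins, matrix proteins of the hair shaft, 50 of 51 tested genes had both cKO levels below both controls (32.9% of all genes). Of all 56 with values, tested or not, 44 were at 0 in cKO replicate 2, as were 167 of the 14459 genes tested. The 56 genes summed to 815 and 12.5 TPM in the cKO and 7602 and 8222 TPM in the fl/fl libraries. The part of these tissues in the levels of the sheath keratins was not tested.

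**Figure D5:**
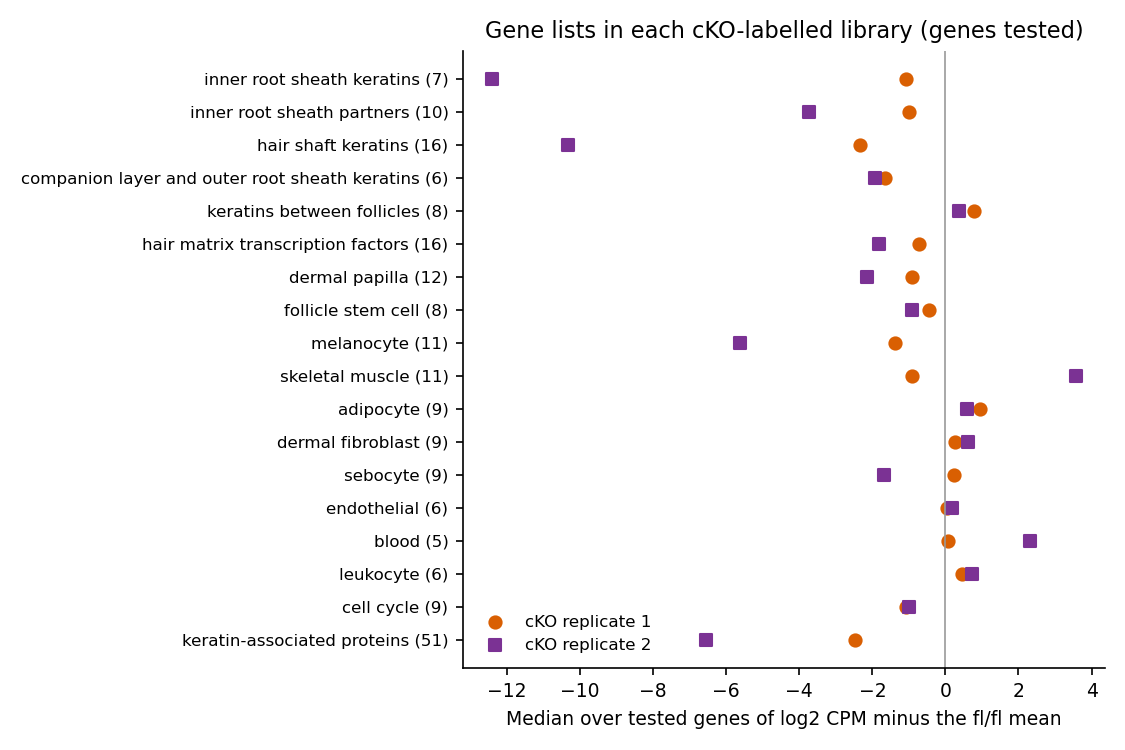
Median over the tested genes of each list of log2 CPM minus the fl/fl mean (horizontal axis) in cKO replicate 1 (circles) and cKO replicate 2 (squares), with the number of genes tested in brackets. The inner root sheath keratins have the lowest median in cKO replicate 2 among the lists drawn, at -12.4, followed by hair shaft keratins at -10.3. For genes hardly read there, the value follows from their level in the controls and the prior count. The order of these lists therefore does not rank their loss. Skeletal muscle has the highest median, at 3.56.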

How the data were processed

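Gene expression was measured in 4 mouse skin libraries, 2 per group, grouped by sample title. Per the labels' protocols, mRNA was captured on oligo(dT), fragmented, made into cDNA and sequenced from DNA nanoballs, with no statement on strand. The submitters' processing notes name the build GRCm39 and list RSEM (version 1.3.1), DESeq2 (1.4.5) and Bowtie2 (2.3.4.3) without saying what each did. The authors deposited estimated counts per gene, which were not normalized, and TPM and FPKM values, which the authors scaled by transcript length and depth. The 12 other columns of normalized or mean values were not used.

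The main test was edgeR's quasi-likelihood test (edgeR 4.0.16 in R 4.3.3) on the rounded estimated counts. Its only term was group, genes passed the default filter, scaling was by TMM, and p-values were Benjamini-Hochberg adjusted over 14459 genes with 0.05 as threshold. Residual degrees of freedom were 2, and SE is the size of the log2 fold change divided by the square root of F. CPM values are TMM-scaled. On simulated counts for the comparison of cKO with fl/fl, run on 14318 genes, 96.9% of 196 genes changed by 3 log2 units were recovered, with 4 false calls. The simulated libraries of a group shared a common mean, whereas the cKO libraries differed widely from each other for the members. This recovery rate therefore does not apply to the members. Counting intervals are exact (95%), a library at 0 was set to a floor of 3 counts, and both cover counting error only. DESeq2 1.42.0, limma 3.58.1, other scalings, filters and pseudocounts, a replicate block and each library left out were tried as alternatives.

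The named genes were the 7 members, up to 4 genes with the highest mean TPM from each of 19 lists, and the 10 closest profiles. Krt75, Krt2, Krt24, Oca2, Krt34, Krt84 and Krt32 were chosen after their values were seen. The members and lists were chosen with earlier results of these data known. Promoter sequences were taken from RefSeq (GRCm38.p6) by gene identifier, and all 7 members matched.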

Additional observations from a re-analysis of the deposited data

How the results depend on the processing

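Log2 fold changes of the members varied in size with the method, from -5.85 to -8.99 with limma-voom against -1.77 to -2.92 with edgeR. Both cKO levels lay below both fl/fl levels for all 7 members, so their direction had little room to change. No inner root sheath keratin changed direction in any of the 98 refits of single members. In 91 the adjusted p stayed above 0.05, and the 7 that passed were those without cKO replicate 1. Leaving out each library in turn gave 0 to 7 members called, 0 to 15 hair shaft keratins, 0 to 7 sheath partners and 0 to 9 matrix transcription factors. The upper counts all came from the fit without cKO replicate 1, against 579 genes lower and 308 higher of 14855. That fit rests on 1 cKO library. Without any other single library 0 were called in these lists, and 0 over all genes. The summed log2 difference of -6.86 ran from -12.4 without cKO replicate 1 to -1.31 without cKO replicate 2. In the same fits the type II share difference ran from -48.4 to 0.365 percentage points. The group difference of the log2 ratio of sheath to shaft, with 1 TPM added to both sums, ran from -3.93 to 0.80. Over all libraries this difference was -1.57, and it was -2.35 with 0.1 TPM added instead. With library totals alone 2 hair shaft keratins, 3 partners and 4 transcription factors were called, against 725 genes lower and 634 higher of 14459. DESeq2 called 3 partners and 8 transcription factors, against 1428 genes lower and 1146 higher of 17925. Upper-quartile factors gave 1 transcription factor, against 152 genes lower and 236 higher of 14459. At an edgeR adjusted p of 0.1, 3 partners and 6 transcription factors passed, against 967 genes lower and 1234 higher of 14459. The cause of these changes was not tested.

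Over all genes, edgeR called 0 lower and 4 higher. DESeq2 called 1428 lower and 1146 higher, upper-quartile factors 152 and 236, library totals 725 and 634, log2(TPM + 1) 1 and 4, no filter 0 and 6, and the fit without cKO replicate 1 gave 579 and 308. Without any other single library 0 genes were called. On log2(TPM + 1) and log2(TPM + 0.1) the median gene shifted by -0.16 and -0.18, far less than the members (-4.74 to -6.32 with the larger pseudocount). With the replicate block the members gave log2 fold changes of -5.01 to -7.07 and adjusted p values of 0.307 to 0.496, with 0 called. The labels do not say that equal numbers mark a pair, and same-numbered deviations correlated at -0.13. A crossed replicate block, added after seeing the data, called 0 members and 0 genes in all. In cKO replicate 2 the 7 members had 5 counts together, which limits what can be said of their shares there. Its total of 14622791 counts was close to the 14723409 of cKO replicate 1.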
